A study of Homo sapiens with 9 samples.

Results

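The 9 genes described here encode the insulin receptor and the best-known steps of the signal it starts in liver cells: INSR, IRS1, IRS2, PIK3R1, AKT1, AKT2, FOXO1, FOXO3 and IGFBP1. They were chosen by name from 24204 gene symbols. RNA-seq libraries were made from HepG2, a human liver tumor cell line, after infection with lentivirus for 48 h and puromycin selection for a further 48 h. The shCtrl group carried a control short hairpin RNA, and the shTRIB3-1 and shTRIB3-2 groups each carried a different hairpin against TRIB3, with 3 libraries per group. All 9 libraries therefore share the cell line, infection with a hairpin lentivirus, puromycin, and high-glucose medium with 10% serum. The cells were selected populations of infected cells, and the labels do not say that replicates were separate cultures, so p-values measure the spread between these libraries, which may be technical. The study's methods, written for all its RNA-seq together, describe cells deprived of glutamine. The labels of these libraries name no glutamine withdrawal. The study's discussion reports perturbed DNA repair gene expression after TRIB3 loss in cells that were not deprived. The medium at harvest of these libraries is not stated outright and so remains uncertain.

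TRIB3 is a pseudokinase of the tribbles family that is induced when amino acids run short. It is best known in liver for binding AKT, the kinase that carries the insulin signal, which is why the insulin pathway is of interest in cells with less of it. Insulin binds its receptor INSR, a tyrosine kinase, which phosphorylates the adaptors IRS1 and IRS2. These recruit the lipid kinase PI3K through its regulatory subunit p85-alpha, a product of PIK3R1. The lipid that PI3K makes brings AKT to the membrane to be activated. AKT then phosphorylates the transcription factors FOXO1 and FOXO3 and keeps them out of the nucleus. IGFBP1, a secreted protein that binds insulin-like growth factors, is a classical FOXO1 target in hepatocytes and falls when insulin acts. RNA-seq measures transcripts only: neither the phosphorylation of AKT nor the location of FOXO proteins was measured.

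The 2 hairpins are shown because they define the knockdown groups. Both are read here 5′ to 3′ as the 21-base target strand from the study's list of hairpins.

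shTRIB3-1: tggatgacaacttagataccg

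shTRIB3-2: gccgtgctcttccgccagatg

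The first matched chr20:388072-388092, in exon 2 as numbered on a GENCODE transcript of TRIB3, and the second matched chr20:391473-391493, in exon 3. Both sites lie on the plus strand of GRCh38 in coding sequence. Among GENCODE v44 transcripts each had exact matches in 1 gene, TRIB3, so neither matched a transcript of any of the 9 genes exactly.

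TRIB3 itself was 67.9, 65.8 and 66.6 FPKM in the shCtrl libraries (fragments scaled for gene length and for the mapped fragments of the library). It was 34.1, 32.7 and 34.0 FPKM with shTRIB3-1 and 20.6, 20.7 and 20.4 FPKM with shTRIB3-2. The knockdown was thus partial, to 50.3% of the control mean with shTRIB3-1 and 30.8% with shTRIB3-2, and the second hairpin left less TRIB3 than the first in every library (log2 difference −0.71, adjusted p = 9.54e-09). TRIB1, a paralogue, rose from 17.2 to 38.4 and 38.2 FPKM (adjusted p = 1.16e-10 and 8.89e-11). TRIB2 stayed under the filter on low values, at 0.290 FPKM in shCtrl, 0.310 with shTRIB3-1 and 0.146 with shTRIB3-2. In a fit without that filter its log2 fold changes were 0.09 and −0.65 (adjusted p = 0.773 and 0.0292).

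Library depth was 34206726 to 36311029 fragments. All 10 hepatocyte markers (ALB, AFP, APOA1 and others) reached 1 FPKM in each group. Their summed level was 10124.1 to 10860.6 FPKM in shCtrl, 10144.3 to 10658.4 in shTRIB3-1 and 12770.8 to 13146.6 in shTRIB3-2. ALB was the largest part of the sum in each group, and group means within the list moved both ways. With both hairpins APOA1 and TTR were higher than in shCtrl, whereas FGB, SERPINA1, APOB and HNF4A were lower. The similar sums of shCtrl and shTRIB3-1 thus do not mean that the single markers were unchanged. The 5 endothelial markers summed to at most 0.314 FPKM in any library. Of the immune and stromal lists, the sums ran from 31.8 to 41.4 and from 39.3 to 63.1 FPKM, nearly all from CD68 and ACTA2, while PTPRC was at 0 in shCtrl. The cholangiocyte list summed to 426 to 431 FPKM in shCtrl against 780 to 821 and 793 to 807 with the hairpins. In that list KRT19 rose from 234 to 632 and 622 FPKM (adjusted p = 2.39e-11 and 1.89e-11), whereas SOX9 fell from 41.2 to 23.4 and 19.3 FPKM (adjusted p = 2.73e-08 and 1.63e-09) and EPCAM was at 153, 146 and 160 FPKM (adjusted p = 0.103 and 0.113). KRT7 and CFTR of that list stayed under 1 FPKM. These shifts moved with the hairpins as the results below did, and their part in them was not tested.

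In control cells the 9 genes spanned a wide range of levels. IGFBP1 had the highest, 365 ± 31.6 FPKM (SD, n = 3), above 98.9% of tested genes. AKT1 followed at 34.7 ± 0.999 FPKM. AKT2 (13.1 ± 0.377 FPKM), IRS1 (12.2 ± 0.372 FPKM) and INSR (11.5 ± 0.0265 FPKM) formed a close group, and the lowest AKT2 library and the highest IRS1 library were both at 12.7 FPKM. PIK3R1 (4.94 ± 0.280 FPKM), FOXO3 (3.06 ± 0.196 FPKM) and FOXO1 (2.48 ± 0.114 FPKM) were lower, with no overlap between neighbours. IRS2 was the lowest at 0.546 ± 0.0992 FPKM, above only 1.77% of tested genes, and was the 1 gene of the 9 that did not pass the filter of 1 FPKM in at least 3 libraries. With either hairpin PIK3R1 fell below FOXO3 in this order, at 2.05 against 3.50 FPKM and at 2.03 against 3.46 FPKM, without overlap between the libraries of the 2 genes.

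**Figure D1:**
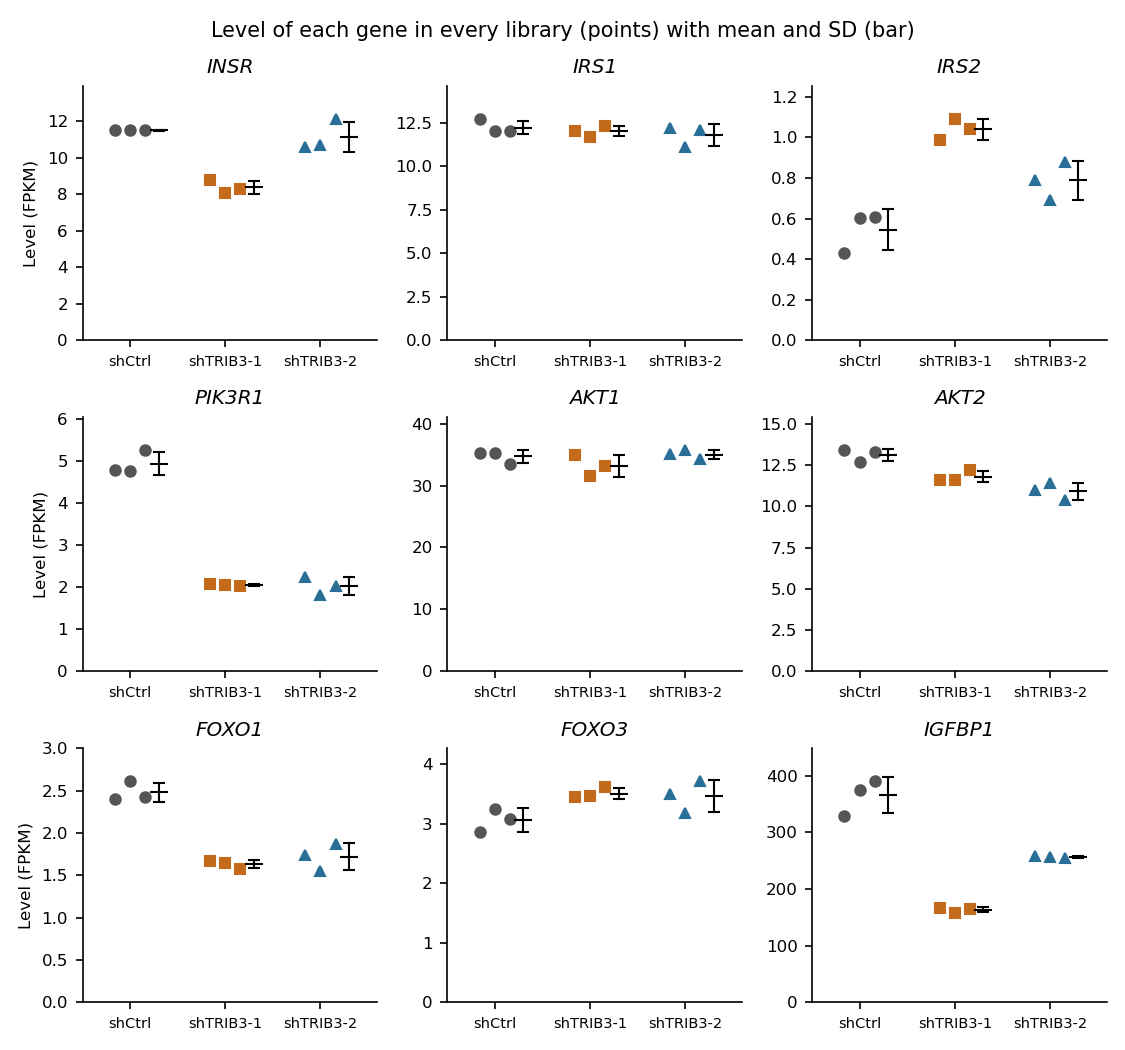
Level in FPKM (vertical axes, each from 0) of the 9 genes in every library of shCtrl, shTRIB3-1 and shTRIB3-2; points are libraries and bars show the mean ± SD of 3. PIK3R1 and FOXO1 sit lower with both hairpins, the INSR points of shTRIB3-1 lie below all others, IGFBP1 is lowest with shTRIB3-1, and AKT1 and IRS1 overlap between groups.

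Most genes in these cells differed between groups, so counts of called genes are read against that background. Genes were called where the adjusted p was under 0.05, and called large where its absolute log2 fold change was also above 1. With shTRIB3-1, 6 of the 8 tested genes were called (75.0%), beside 74.4% of all 11265 tested genes. FOXO3 was the 1 called higher (background 32.9%), and AKT2, INSR, PIK3R1, FOXO1 and IGFBP1 were the 5 called lower (background 41.5%). With shTRIB3-2, 4 were called (background 75.9%), all lower (AKT2, PIK3R1, FOXO1 and IGFBP1; background 40.5%) and 0 higher (background 35.4%). Large changes were PIK3R1 and IGFBP1 with shTRIB3-1, 2 of 8 beside 11.5% of tested genes, and PIK3R1 with shTRIB3-2, 1 of 8 beside 12.3%. The median log2 fold change of the 8 was −0.31 with shTRIB3-1 and −0.16 with shTRIB3-2, against −0.06 and −0.03 over all tested genes. The share called with shTRIB3-1 was near its background, and the share with shTRIB3-2 was below it. Both comparisons use the same 3 control libraries.

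**Figure D2:**
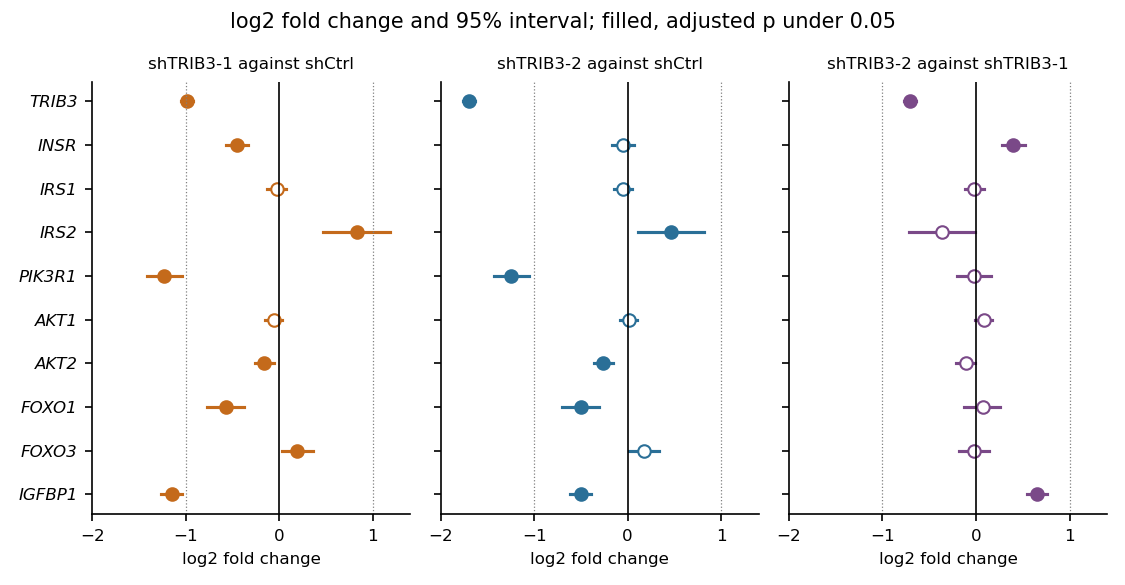
log2 fold change (horizontal axis) with its 95% interval for TRIB3 and the 9 genes in 3 comparisons; filled points have an adjusted p under 0.05 and dotted lines mark a log2 fold change of 1 in either direction. IRS2 is shown from the fit without the filter on low values. PIK3R1 lies at −1.23 and −1.25 with the 2 hairpins, whereas INSR and IGFBP1 lie to the right of 0 in the direct comparison of hairpins, at 0.40 and 0.65.

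INSR (chr19:7112255-7294414, minus strand) encodes the receptor itself. Its level was 11.5, 11.5 and 11.5 FPKM in shCtrl, 8.79, 8.07 and 8.26 FPKM with shTRIB3-1, and 10.6, 10.7 and 12.1 FPKM with shTRIB3-2. All shTRIB3-1 libraries were below every other library, while shTRIB3-2 overlapped the control. The level with shTRIB3-1 was 72.8% of the control (log2 fold change −0.45, SE 0.0545, adjusted p = 9.16e-06). With shTRIB3-2 it was 96.5% (log2 fold change −0.05, 95% interval −0.17 to 0.07, adjusted p = 0.393). The 2 hairpins differed directly by 0.40 (adjusted p = 9.82e-05), so the lower INSR level was seen with the hairpin that left more TRIB3. In bulk RNA, fewer expressing cells and less RNA per cell cannot be told apart, here and for the genes that follow.

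The adaptors differed from each other. IRS1 (chr2:226731312-226799820, minus strand) was 12.7, 12.0 and 12.0 FPKM in shCtrl, 12.0, 11.7 and 12.3 FPKM with shTRIB3-1, and 12.2, 11.1 and 12.1 FPKM with shTRIB3-2. The 3 groups overlapped. Its log2 fold changes were −0.03 (95% interval −0.13 to 0.07, adjusted p = 0.574) and −0.05 (−0.15 to 0.05, adjusted p = 0.326), so a change of IRS1 beyond those intervals was not seen. IRS2 (chr13:109752695-109786583, minus strand), the adaptor that hepatocytes raise when insulin is low, was measured from few fragments: 126, 178 and 177 in shCtrl, 275, 305 and 295 with shTRIB3-1, and 221, 196 and 252 with shTRIB3-2. These correspond to 0.432, 0.601 and 0.606 FPKM, then 0.985, 1.09 and 1.04 FPKM, then 0.792, 0.691 and 0.880 FPKM. The 3 groups did not overlap.

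In the fit without the filter, where 41.3% and 40.4% of 24204 genes were called against shCtrl, IRS2 rose with shTRIB3-1 (log2 fold change 0.83, SE 0.155, adjusted p = 0.00218). Its log2 fold change with shTRIB3-2 was 0.46 (adjusted p = 0.0408), and this call was lost in 9 of 16 alternatives, with adjusted p of 0.0548 to 0.123. Among these were the fits without shCtrl replicate 1 (log2 fold change 0.33), without shTRIB3-2 replicate 1 (0.46) or 3 (0.39), and without any one shTRIB3-1 replicate (0.46). The direct difference between hairpins was −0.36 (95% interval −0.72 to −0.01, adjusted p = 0.147, beside 21.1% of genes called). The IRS2 to IRS1 ratio within a library was 0.0448 ± 0.00929 in shCtrl, 0.0867 ± 0.00572 with shTRIB3-1 and 0.0665 ± 0.00536 with shTRIB3-2 (SD, n = 3 each). Its log2 ratio was thus higher by 0.97 and 0.59, each without overlap with shCtrl (two-sided exact permutation p = 0.10, the smallest that 3 against 3 can give). IRS1 transcripts still outnumbered those of IRS2 per length in every library.

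PIK3R1 (chr5:68215740-68301821, plus strand) had the lowest log2 fold change of the 9 genes with shTRIB3-2 on the log2(FPKM + 0.1) scale, while with shTRIB3-1 its 95% interval, −1.41 to −1.04, overlapped that of IGFBP1, −1.27 to −1.04. The level was 4.80, 4.76 and 5.26 FPKM in shCtrl, 2.07, 2.06 and 2.02 FPKM with shTRIB3-1, and 2.24, 1.81 and 2.03 FPKM with shTRIB3-2. The highest knockdown library, at 2.24 FPKM, was well below the lowest control library, at 4.76 FPKM. The fall was to 41.6% and 41.1% of the control (log2 fold change −1.23 and −1.25, SE 0.0836, adjusted p = 5.52e-08 and 4.04e-08). The hairpins did not differ from each other beyond their spread (log2 difference −0.02, 95% interval −0.20 to 0.16, adjusted p = 0.856). Behind these values were 1654 to 1816 fragments in the control libraries and 608 to 739 in the others. They pool all transcripts of the gene, which has several annotated starts, so which transcripts fell was not measured. On log2(FPKM + 1) the log2 fold changes of PIK3R1 were −0.96 and −0.97, just short of a large call, and that of IGFBP1 with shTRIB3-1 was −1.15.

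The other PI3K subunits moved differently. PIK3R2, which encodes the p85-beta regulatory subunit and was chosen after its values were seen, fell less, from 29.0 to 26.3 and 23.8 FPKM (log2 fold change −0.14 and −0.29, adjusted p = 0.0228 and 2.17e-04). PIK3R1 made up 14.4% ± 1.04 of the summed FPKM of PIK3R1, PIK3R2 and PIK3R3 in shCtrl, 7.16% ± 0.491 with shTRIB3-1 and 7.72% ± 0.530 with shTRIB3-2 (SD, n = 3 each), without overlap between control and knockdown libraries. The catalytic subunit gene PIK3CA rose from 3.82 to 4.23 and 4.61 FPKM (log2 fold change 0.15 and 0.27, adjusted p = 0.0435 and 0.00155). PIK3CB and PIK3CD, also picked after the fact as the other catalytic subunits, rose by log2 fold changes of 0.35 and 0.43 and of 0.41 and 0.69. PIK3R3, a further regulatory subunit gene that was below the filter on low values, was at 0.273 FPKM in shCtrl and at 0.366 and 0.442 FPKM with the hairpins (log2 fold change 0.32 and 0.54, adjusted p = 0.0870 and 0.00980 in the fit without the filter), so with shTRIB3-2 the regulatory genes did not all move one way. Directions of the 5 tested genes held under each scaling, although with shTRIB3-1 the PIK3R2 call was lost on centred values (adjusted p = 0.292) and the PIK3CA call on TPM (adjusted p = 0.243).

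The AKT genes changed little. AKT1 (chr14:104769349-104795751, minus strand) was 35.2, 35.3 and 33.5 FPKM in shCtrl, 35.0, 31.5 and 33.1 FPKM with shTRIB3-1, and 35.1, 35.7 and 34.2 FPKM with shTRIB3-2. The groups overlapped, and its log2 fold changes were −0.06 (95% interval −0.15 to 0.03, adjusted p = 0.188) and 0.01 (−0.08 to 0.10, adjusted p = 0.782). With shTRIB3-1 AKT1 was called lower on TPM (log2 fold change −0.12, adjusted p = 0.0217) and without shTRIB3-1 replicate 1 (−0.10, adjusted p = 0.0395). An antisense gene overlaps 6.05% of AKT1 exon bases. Whether counting used the strand is not given in the sources used here.

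AKT2 (chr19:40230317-40285536, minus strand), the AKT gene most tied to the metabolic action of insulin, was 13.4, 12.7 and 13.3 FPKM in shCtrl, 11.6, 11.6 and 12.2 FPKM with shTRIB3-1, and 11.0, 11.4 and 10.4 FPKM with shTRIB3-2. Every knockdown library was below every control library. The level was 89.6% of the control with shTRIB3-1 (log2 fold change −0.16, SE 0.0458, adjusted p = 0.00785). For shTRIB3-2 it was 83.2% (−0.26, adjusted p = 2.08e-04). The call with shTRIB3-1 was lost when the libraries were centred on their medians (adjusted p = 0.200) or quantile normalized (adjusted p = 0.0991). The AKT2 to AKT1 ratio was 0.380 ± 0.0188 in shCtrl, 0.355 ± 0.0218 with shTRIB3-1 and 0.313 ± 0.00823 with shTRIB3-2 (SD, n = 3 each). It overlapped the control with shTRIB3-1 (exact permutation p = 0.30) and did not with shTRIB3-2 (exact permutation p = 0.10).

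The FOXO genes moved apart. FOXO1 (chr13:40555667-40666641, minus strand), the main FOXO factor of hepatic glucose production, was 2.40, 2.61 and 2.42 FPKM in shCtrl, 1.67, 1.64 and 1.57 FPKM with shTRIB3-1, and 1.74, 1.55 and 1.87 FPKM with shTRIB3-2. No knockdown library reached the lowest control library. The level was 65.8% and 69.4% of the control (log2 fold change −0.57 and −0.50, SE 0.0891, adjusted p = 8.65e-05 and 2.37e-04). Another annotated gene on the same strand shares 22.7% of FOXO1 exon bases, so some fragments could have been assigned to either.

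FOXO3 (chr6:108559835-108684774, plus strand), a paralogue with overlapping targets, was 2.85, 3.24 and 3.08 FPKM in shCtrl, 3.44, 3.46 and 3.61 FPKM with shTRIB3-1, and 3.49, 3.18 and 3.71 FPKM with shTRIB3-2. The shTRIB3-1 libraries all lay above the control, whereas 1 shTRIB3-2 library lay within it. The log2 fold changes were 0.19 (SE 0.0750, adjusted p = 0.0347) and 0.17 (adjusted p = 0.0542). The first call was lost on values rescaled to TPM (adjusted p = 0.157), which left 6 of the 8 tested genes called lower and 0 higher with shTRIB3-1. Of all tested genes 5108 were called lower and 3221 higher on TPM. This first call was also lost without the filter (adjusted p = 0.0584). It was lost as well without shCtrl replicate 1 or 3 or any one shTRIB3-1 replicate (adjusted p of 0.0553 to 0.131). The second passed the threshold on centred or quantile normalized values, without shCtrl replicate 2 and without shTRIB3-2 replicate 2, with adjusted p of 0.00412 to 0.0401. A near-identical relative, FOXO3B, had 160 to 271 fragments per library against 1488 to 1899 for FOXO3, and reads could have been split between the pair. FOXO4, the remaining FOXO gene past the filter, was 3.76 FPKM in shCtrl and 3.53 and 3.33 FPKM with the hairpins (adjusted p = 0.288 and 0.0478). The FOXO4 call with shTRIB3-2 was lost on centred values (adjusted p = 0.104) and quantile normalized values (adjusted p = 0.184).

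The FOXO3 to FOXO1 ratio of FPKM was 1.23 ± 0.0427 in shCtrl, 2.15 ± 0.125 with shTRIB3-1 and 2.01 ± 0.0351 with shTRIB3-2 (SD, n = 3 each). The log2 ratio was higher by 0.80 and 0.71, with no overlap between control and knockdown libraries in either case (exact permutation p = 0.10 each). A ratio within a library does not depend on how the libraries were scaled to each other. It shows an unequal change of the pair and not which of them moved.

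**Figure D3:**
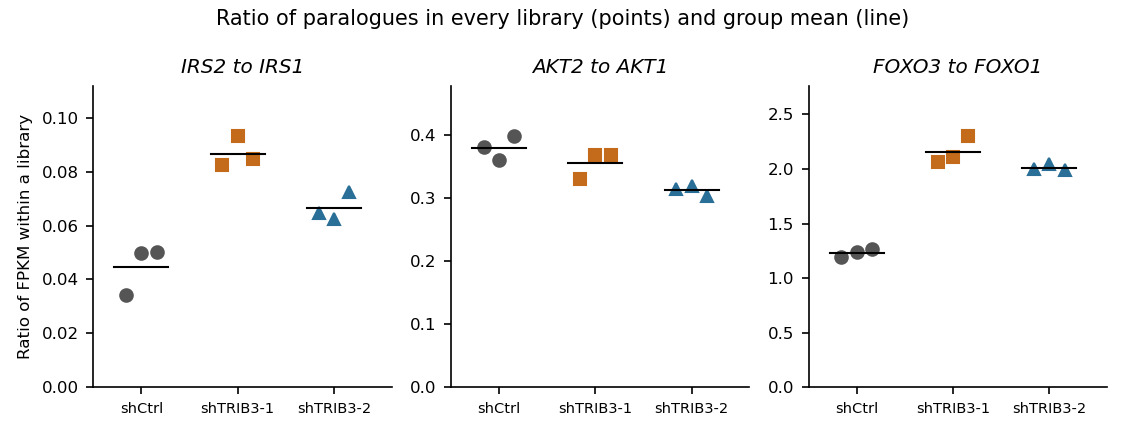
Ratio of FPKM within a library (vertical axes, from 0) for the paralogue pairs IRS2 to IRS1, AKT2 to AKT1 and FOXO3 to FOXO1; points are libraries and lines are means of 3. FOXO3 to FOXO1 lies at 1.19 to 1.27 in shCtrl and at 1.99 to 2.30 in the other libraries, whereas AKT2 to AKT1 overlaps between shCtrl and shTRIB3-1.

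IGFBP1 (chr7:45888360-45893660, plus strand) was the most abundant transcript of the 9 in every group. Its level was 329, 374 and 390 FPKM in shCtrl, 167, 158 and 164 FPKM with shTRIB3-1, and 258, 256 and 254 FPKM with shTRIB3-2. The groups separated fully, with shTRIB3-2 between the other groups. It fell to 44.8% of the control with shTRIB3-1 (log2 fold change −1.15, SE 0.0516, adjusted p = 1.24e-09) and to 70.3% with shTRIB3-2 (−0.50, adjusted p = 1.99e-06). The 2 hairpins differed directly by 0.65 (95% interval 0.54 to 0.76, adjusted p = 1.39e-06). IGFBP1 accounted for 91.6% ± 0.453 of the summed FPKM of IGFBP1 to IGFBP7 in shCtrl, 78.8% ± 0.469 with shTRIB3-1 and 87.6% ± 0.234 with shTRIB3-2 (SD, n = 3 each). IGFBP6 rose at the same time from 2.50 to 13.2 and 11.9 FPKM (log2 fold change 2.40 and 2.25, adjusted p = 4.74e-08 and 7.33e-08). IGF2, a growth factor that IGFBP1 binds, fell from 133 to 115 and 96.3 FPKM (adjusted p = 1.84e-04 and 1.77e-07), and IGFBP2 stayed under 1 FPKM.

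In the direct comparison of shTRIB3-2 with shTRIB3-1, INSR and IGFBP1 were the 2 genes called of 8 tested (25.0%), beside 45.8% of all tested genes. Both were higher with shTRIB3-2 (background 25.1% higher, 20.7% lower), and none of the 8 was large, beside 2.08%. AKT2 was also called, lower with shTRIB3-2, with quantile normalization (adjusted p = 0.0450) and without shTRIB3-2 replicate 2 (adjusted p = 0.0425), and AKT1, higher, without shTRIB3-1 replicate 1 (adjusted p = 0.0406). For PIK3R1, FOXO1 and FOXO3 the 95% intervals of the difference were −0.20 to 0.16, −0.13 to 0.26 and −0.18 to 0.14. Differences within those intervals are compatible with the data. The summed hepatocyte markers were also higher with shTRIB3-2 than with shTRIB3-1, as given above, and their part in the INSR and IGFBP1 differences was not tested.

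The remaining FOXO factors and FOXO target genes were examined as a list written from general knowledge, with the 9 genes left out: 26 were in the table and 22 tested. FOXO4, a factor and not a target, is among the 22 and among those that fell with shTRIB3-2 (log2 fold change −0.17, adjusted p = 0.0478). As given above, that call was lost on centred and on quantile normalized values. With each hairpin 8 rose and 12 fell, a share of 90.9% called beside 74.4% and 75.9% of all tested genes. The median log2 fold change was −0.44 and −0.18 against −0.06 and −0.03. After quantile normalization 9 rose and 9 fell with shTRIB3-2, while of all tested genes 4315 rose and 4190 fell. In the main fit 3990 of all tested genes rose and 4562 fell with shTRIB3-2. The list did not move as a block. PCK1, the rate-limiting enzyme of gluconeogenesis, rose from 1.46 to 17.8 and 8.65 FPKM (log2 fold change 3.52 and 2.49, adjusted p = 2.38e-13 and 1.76e-12). MTTP, which loads lipid onto apolipoprotein B, rose from 24.5 to 66.8 and 64.1 FPKM (1.44 and 1.39, adjusted p = 5.53e-11 and 5.71e-11). PPARGC1A, the coactivator PGC-1alpha of the gluconeogenic program, fell from 1.81 to 0.305 and 0.392 FPKM (−2.23 and −1.96, adjusted p = 6.46e-08 and 1.83e-07). TNFSF10, the death ligand TRAIL, fell from 4.49 to 1.35 and 1.85 FPKM (−1.67 and −1.24, adjusted p = 2.93e-08 and 4.15e-07). PDK4, a further FOXO target, stayed under 1 FPKM, at 0.165 in shCtrl, 0.360 with shTRIB3-1 and 0.171 with shTRIB3-2. In the fit without the filter its log2 fold changes were 0.80 and 0.02 (adjusted p = 0.00193 and 0.978). The direct difference between hairpins was −0.78 (adjusted p = 0.00568).

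G6PC1, the glucose-6-phosphatase subunit that completes hepatic glucose release, was picked after its values were seen. It was 7.11 FPKM in shCtrl, 2.98 with shTRIB3-1 and 6.83 with shTRIB3-2, and the hairpins differed directly by 1.17 (adjusted p = 5.25e-07). Like INSR and IGFBP1 it was thus lower with shTRIB3-1 than with shTRIB3-2, whereas PCK1 was higher with shTRIB3-1 (direct difference −1.03, adjusted p = 3.78e-08). CDKN1A and GADD45A, growth arrest genes that are also targets of p53 and of stress pathways, were likewise picked after their values were seen. They rose with both hairpins by log2 fold changes of 0.93 and 1.41 and of 0.96 and 1.18. CITED2 and CAT of the same list, picked in the same way, fell, with log2 fold changes of −0.49 and −1.21 and of −0.80 and −0.80.

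**Figure D4:**
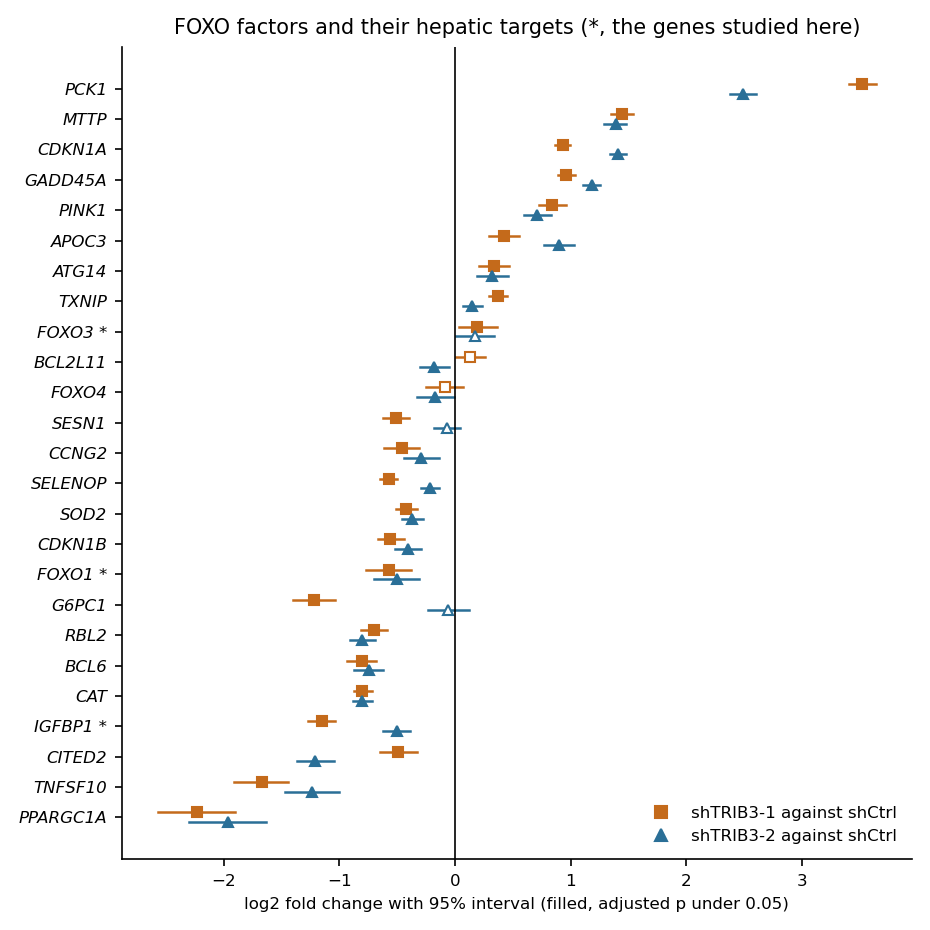
log2 fold change with its 95% interval (horizontal axis) for the 22 tested FOXO factors and targets and for FOXO1, FOXO3 and IGFBP1 (asterisks), squares for shTRIB3-1 and triangles for shTRIB3-2, each against the same shCtrl libraries; filled points have an adjusted p under 0.05. Points lie on both sides of 0, from PPARGC1A at −2.23 to PCK1 at 3.52, and IGFBP1 lies among the targets that fell.

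Around the receptor, 14 other receptor and adaptor genes were tested, of which 6 rose and 5 fell with shTRIB3-1 (9 and 4 on centred values) and 7 rose and 5 fell with shTRIB3-2. The share called was 78.6% and 85.7%, beside 74.4% and 75.9% of all tested genes. Of all tested genes 32.9% were higher and 41.5% lower with shTRIB3-1, and 35.4% and 40.5% with shTRIB3-2, which is also the background of the lists below. In counts these were 3701 higher and 4678 lower, and 3990 and 4562. On centred values they were 4408 higher and 3924 lower with shTRIB3-1, and 4400 and 4120 with shTRIB3-2. On TPM they were 3221 and 5108, and 3752 and 4675. CBL, a ubiquitin ligase that tags receptor tyrosine kinases, rose from 4.68 to 8.48 and 9.90 FPKM (log2 fold change 0.84 and 1.06, adjusted p = 1.05e-08 and 1.05e-09). GRB10, an adaptor that inhibits the insulin receptor kinase, rose from 1.21 to 2.28 and 2.55 FPKM (0.86 and 1.02, adjusted p = 6.41e-07 and 1.22e-07). IGF1R, the receptor closest to INSR in sequence, fell from 8.63 to 7.67 and 7.41 FPKM (−0.17 and −0.22, adjusted p = 0.00882 and 0.00155). The first call was lost on centred values (adjusted p = 0.0703) and on quantile normalized values (adjusted p = 0.0689).

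Of 11 PI3K and phosphatase genes tested, 6 rose and 5 fell with shTRIB3-1 (6 and 3 on centred values, 4 and 5 on TPM), and 6 rose and 4 fell with shTRIB3-2. The share called was 100% and 90.9%, beside 74.4% and 75.9% of all tested genes. PHLPP1, a phosphatase that inactivates AKT, fell from 12.3 to 5.70 and 5.55 FPKM (−1.09 and −1.13, adjusted p = 3.32e-09 and 1.98e-09). Its paralogue PHLPP2, named after its values were seen, rose from 3.60 to 6.13 and 6.83 FPKM (0.75 and 0.91).

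Downstream of AKT, 22 mTOR genes and AKT substrates were tested, of which 7 rose and 6 fell with shTRIB3-1 and 6 rose and 10 fell with shTRIB3-2. The share called was 59.1% and 72.7%, beside 74.4% and 75.9% of all tested genes. DEPTOR, an inhibitor of mTOR, fell from 3.91 to 1.31 and 1.19 FPKM (log2 fold change −1.51 and −1.65, adjusted p = 1.48e-07 and 5.82e-08). TBC1D4, the AKT substrate AS160 that controls glucose transporter traffic, fell from 10.1 to 4.86 and 5.50 FPKM (−1.03 and −0.86). RPS6 and EIF4EBP1, the ribosomal protein and the translation repressor that read out mTOR activity as proteins, fell further with shTRIB3-2: RPS6 was 597, 510 and 296 FPKM in shCtrl, shTRIB3-1 and shTRIB3-2, with a direct difference of −0.78 (adjusted p = 5.48e-08). EIF4EBP1 was 48.8, 36.9 and 22.1 FPKM, with a direct difference of −0.74 (adjusted p = 3.09e-07).

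The Ras and MAPK arm, the other branch below the IRS adaptors, had 19 tested genes, of which 6 rose and 5 fell with shTRIB3-1 and 11 rose and 5 fell with shTRIB3-2. On centred values these were 9 and 2 and 13 and 3, and on TPM 6 and 7 and 9 and 5. The counts over all tested genes shifted in the same directions with the scaling, as given above. In the main fit the share called was 57.9% and 84.2%, beside 74.4% and 75.9% of all tested genes. EGR1, an immediate early gene of that arm, rose from 2.20 to 3.25 and 4.85 FPKM (log2 fold change 0.55 and 1.12, adjusted p = 8.87e-04 and 2.19e-06). Among 8 tested genes that insulin induces in liver, 4 rose and 1 fell with shTRIB3-1 (2 and 1 on TPM), and 7 rose and 0 fell with shTRIB3-2, beside 32.9% higher and 41.5% lower of all tested genes with shTRIB3-1 and 35.4% and 40.5% with shTRIB3-2. None of the 8 was large, beside 11.5% and 12.3%. Their median log2 fold change was 0.12 and 0.22, against −0.06 and −0.03 over all tested genes. SREBF1, the lipogenic regulator among them and named after its values were seen, rose from 13.8 to 17.7 and 16.4 FPKM (0.35 and 0.25).

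Over all 7 lists, without the 9 genes themselves, 100 genes were tested. The share called was 73.0% for shTRIB3-1, with 38 genes up and 35 down, and 84.0% for shTRIB3-2, with 46 up and 38 down. Of all tested genes it was 74.4% and 75.9%. The direct comparison of hairpins called 47.0%, 29 higher and 18 lower with shTRIB3-2, beside 45.8%. The pathway's share was thus near that of all tested genes with shTRIB3-1 and higher with shTRIB3-2, a difference that was not tested.

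The genes whose profile over the 9 libraries was nearest to that of PIK3R1, by root mean square distance of log2 values after the control mean was taken off, were TDGF1 (0.0722), KLB (0.0755) and GASK1B (0.0761). KLB encodes beta-klotho, a co-receptor for the fibroblast growth factors of liver. For IGFBP1 they were ANG (0.0521), MXRA7 (0.0909) and ISCU (0.0967), and for FOXO1 they were MYO9B (0.0387), CREB1 (0.0493) and PARG (0.0527). ANG, which encodes the secreted ribonuclease angiogenin, fell by 1.14 with shTRIB3-1 and by 0.44 with shTRIB3-2 on the log2 scale. Among the 9 genes none of the others tested was close: the nearest to PIK3R1 was IGFBP1 at 0.438, at rank 862, and the nearest to FOXO1 was INSR at 0.276, at rank 2695. IRS2, below the filter, was not compared. The profiles share the 9 libraries and their depth, and the distances are a description.

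Promoter sequence was read for the 9 genes from RefSeq windows on GRCh38.p14 that run from 250 bases before an annotated start to 50 after it. Of the 9 genes, 8 had a window, and these had 16 windows in all. The FOXO sites GTAAACA and CAAAACAA, searched on both strands, are found in 3.42% and 1.68% of 35116 windows. GTAAACA was in none of the windows of the 8 genes, which says only that these letters are not there. CAAAACAA was in 1 window, that of IRS2, on the strand opposite to the gene and beginning 41 bases before the start. Another pattern, 4 runs of at least 3 G with 1 to 7 bases between runs on either strand, was searched after the values and sequences had been seen. It was in 11 of the 16 windows and in at least 1 window of each of the 8 genes, against 25.0% of all windows, 33.7% of the windows of tested genes and 40.7% of the 9088 tested genes with a window. The windows of the 8 genes were 40.0% to 83.3% G and C, where the median of all windows was 58.7%. Each of the 8 genes had a window of 68.0% to 83.3%, so these were richer in G and C than the windows that the pattern's shares are set against. The pattern was present for AKT1 and IRS1, which were not called in the main fit, as it was for PIK3R1 and FOXO1, which fell. As all 8 genes held it, the pattern cannot separate them, and a link between it and the changes was not tested.

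Stretches of 4 of these windows show the matches: PIK3R1 and FOXO1 fell, AKT1 was not called, and IRS2 holds the FOXO site. Some other windows of the same genes held no G-run match: those of PIK3R1 at 40.0% and 42.3% G and C, and that of AKT1 at 56.7%. Each stretch runs from base −150 to base −21 before the start, 5′ to 3′ on the strand of the gene. Capitals mark the overlapping G-run matches in the first 3 (in FOXO1 the runs are on the other strand and read as C), cut at base −21 in AKT1, and the reverse complement of CAAAACAA in IRS2.

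PIK3R1, chr5:68215606-68215735, plus strand: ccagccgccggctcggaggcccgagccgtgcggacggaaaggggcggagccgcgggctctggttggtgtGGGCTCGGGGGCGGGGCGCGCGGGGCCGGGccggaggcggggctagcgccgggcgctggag

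FOXO1, chr13:40666662-40666791, minus strand: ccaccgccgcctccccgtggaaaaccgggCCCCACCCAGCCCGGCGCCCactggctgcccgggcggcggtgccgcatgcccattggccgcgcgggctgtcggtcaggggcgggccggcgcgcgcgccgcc

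AKT1, chr14:104795769-104795898, minus strand: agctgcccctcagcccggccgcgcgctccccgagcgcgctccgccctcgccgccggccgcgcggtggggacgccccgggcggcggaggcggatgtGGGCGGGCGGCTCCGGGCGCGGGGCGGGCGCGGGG

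IRS2, chr13:109786604-109786733, minus strand: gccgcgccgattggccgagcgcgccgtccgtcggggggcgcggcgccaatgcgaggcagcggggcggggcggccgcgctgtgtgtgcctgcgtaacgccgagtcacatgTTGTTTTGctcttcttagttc

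These stretches were 83.1%, 83.1%, 88.5% and 70.8% G and C, in the order shown. No protein or chromatin binding was measured in these cells, so the letters describe the windows and not the factors that use them.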

How the data were processed

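HepG2 RNA-seq values were deposited by the authors as FPKM, listed by gene symbol. Per the study's methods STAR aligned the reads to GRCh38, and per the submitters' processing notes HTSeq and R 3.2.0 were used. The annotation release and strand setting are not given in the sources used here. FPKM removes depth and gene length but not shifts in composition. Samples were mapped to groups by their labels, which give no batch. Whole fragments and library totals were recovered from the steps of the FPKM values for 24202 of 24204 genes (tolerance 0.02 fragments). They cover counting error only. Replicates differed by more than sampling noise (chi-square per degree of freedom 3.23 to 7.88), and none was a copy.

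Genes with FPKM of at least 1 in at least 3 libraries (11265) were tested on log2(FPKM + 0.1), a scale that understates changes of low genes. With limma 3.58.1 (R 4.3.3), 1 mean per group and a mean-variance trend were fitted over the 9 libraries together. P-values are two-sided with Benjamini-Hochberg adjustment over every tested gene. IRS2, below the filter, was read from the same fit without it. Ratios of paralogues were compared by exact permutation tests over libraries. Both scripts for fits and fragments were tested on simulated data. Gene positions are from GENCODE v44, promoters from RefSeq, both GRCh38.

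The 9 genes and all lists were chosen with earlier results of these data known. Named from each list were the genes called and large with either hairpin, at most 4 by mean change, plus IGF1R, PIK3CA, FOXO4, IGF2, IGFBP2, PCK1, PDK4 and the TRIB genes, and for the 3 most changed genes the 3 nearest profiles. Some other genes that the rule names are not reported here. Alternatives covered pseudocount, filter, scaling, the 2 groups alone, a replicate block and leaving out each library.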

Additional observations from a re-analysis of the deposited data

Results flagged for a closer look

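The effect of knockdown on 2 of the 9 genes differed between hairpins by the direct test of shTRIB3-2 against shTRIB3-1. INSR was higher with shTRIB3-2 by 0.40 on the log2 scale (adjusted p = 9.82e-05, higher in 3 of 3 libraries), and IGFBP1 was higher by 0.65 (adjusted p = 1.39e-06, higher in 3 of 3 libraries). TRIB3 differed in the opposite direction, by −0.71. A target other than TRIB3 for either hairpin was not tested beyond exact matches.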

How the results depend on the processing

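Of 471 alternative values for the 9 genes, 430 kept their direction and their side of the threshold, 18 lost and 9 gained a call, and 14 turned in direction without a call on either side. Turned were AKT1 with shTRIB3-1 (centred on medians 0.017) and with shTRIB3-2 (TPM −0.010, without shCtrl replicate 3 −0.011, without shTRIB3-2 replicate 2 −0.001); IRS1 with shTRIB3-1 (centred 0.050, quantile 0.037) and between hairpins (TPM 0.008, without shTRIB3-2 replicate 2 0.022); PIK3R1 between hairpins (quantile 0.002, TPM 0.008, without shTRIB3-2 replicate 2 0.053); and FOXO3 between hairpins (TPM 0.009, without shTRIB3-1 replicate 3 0.001, without shTRIB3-2 replicate 2 0.037). Over the fits without 1 library these 4 ranged from −0.011 to 0.029 (AKT1, shTRIB3-2), −0.047 to 0.022 (IRS1), −0.093 to 0.053 (PIK3R1) and −0.071 to 0.037 (FOXO3). With a filter of 5 FPKM, 5 of the 9 genes were tested. Of these 3 were called with shTRIB3-1 and 2 with shTRIB3-2, all lower, of which 1 and 0 large. Of the 7714 genes tested at that filter, 2767 were called higher and 3328 lower with shTRIB3-1, and 2953 and 3240 with shTRIB3-2. A pseudocount of 1 left 1 and 0 large. On FPKM + 1 the log2 change of the IRS2 to IRS1 ratio was 0.429 and 0.259, and that of FOXO3 to FOXO1 0.554 and 0.491.

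Leaving out 1 library gave 5 to 6 called of 8 tested with shTRIB3-1, 4 to 5 with shTRIB3-2 and 2 to 3 between hairpins, and 2, 1 and 0 large as before. Of all 11059 to 11217 genes tested in these fits, 3455 to 3710 were called higher and 4233 to 4735 lower with shTRIB3-1. With shTRIB3-2 these were 3719 to 3962 and 4144 to 4550, and between hairpins 2255 to 2883 and 1996 to 2336. Replicate numbers were not used to pair the libraries in the main fit. Deviations of same-numbered libraries correlated at −0.074 to 0.093, under the 0.1 set as the limit for pairing. The best match had the same number in 12 of 18 cases, and a weak link between same-numbered libraries was not tested. With the replicate block 6, 4 and 2 genes were called, as without it, and IRS2 with shTRIB3-2 kept its fold change of 0.465 but not its call (adjusted p = 0.0571). For IRS2, 126 to 305 fragments limit the precision.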
